A study of Homo sapiens with 8 samples.

Results

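A U937 line with an inducible SLC7A2 construct was set against a U937 line with an inducible SLC7A1 construct, across the transcriptome and with induced and uninduced cells pooled. U937 is an established human monocytic cell line. Both lines, and so every library, were labelled SLC19A1-/-, a knockout of the reduced folate carrier. The members were the 4 libraries of the SLC7A2 line and the 4 libraries of the SLC7A1 line, which are all 8 libraries of the series. In each line 2 libraries came from cells without doxycycline (dox) and 2 from cells given 1 µg/mL dox for 24 h. The construct of each line was under tet control and carried a Flag tag (tet-SLC7A1-Flag or tet-SLC7A2-Flag), and the libraries of a group were numbered 1 and 2. The labels do not say whether a line was 1 clone or whether the numbers stand for separate cultures, so p-values rest on a spread between samples that may be only technical. Each transporter was in 1 line only and no line without a construct was analysed here, so the transporter and any other difference between the lines cannot be told apart.

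SLC7A1 and SLC7A2 belong to the family of cationic amino acid transporters, which carry arginine, lysine and ornithine across the plasma membrane. U937 cells resemble precursors of monocytes. Such cells make granule proteins and lysozyme, present peptides on MHC class I, and gain Fc and scavenger receptors as they mature.

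Poly(A) RNA gave expected (model-estimated) counts per gene, with 17309132 to 18441833 per library, and levels below are CPM, counts scaled to a common library size, after TMM scaling unless stated otherwise. Library values are given in the order no dox 1, no dox 2, dox 1 and dox 2. The libraries of a line did not lie together. On the first principal component, with 27.4% of the variance, both SLC7A2-line libraries numbered 2 had scores of 55.3 without and 68.1 with dox, and the other 6 libraries lay between -52.7 and -3.67. Both SLC7A2-line libraries numbered 1 (-5.90 and -9.13) lay near the SLC7A1-line libraries numbered 2 (-3.67 and -17.2). Monocytic markers made up 0.478% to 1.17% of the counts of each library, with 19 of 20 tested and CD14 too low to test. The 6 T cell markers summed to at most 0.338 CPM of the library total and had 4 to 6 members at 0, and the 6 erythroid and megakaryocyte markers summed to at most 0.327 CPM with 5 members at 0 in every library. Epithelial markers summed to 2.07 to 6.81 CPM. Of the 4 NK cell markers, which summed to 247 to 319 CPM, the granule gene NKG7 held most, with 224 to 308.7 CPM and a log2 difference of -0.17 ± 0.08 (adjusted p = 0.263). The 4 B cell markers summed to 13.7 to 24.4 CPM, nearly all of it CD79A, a chain of the B cell receptor. CD79A had 20.8 to 23.9 CPM in SLC7A1-line and 13.3 to 19.3 CPM in SLC7A2-line libraries, without overlap, and a log2 difference of -0.45 ± 0.10 that did not pass (adjusted p = 0.0683). Fibroblast markers summed to 66.6 CPM in the SLC7A2-line no-dox library numbered 2 and to 6.95 to 13.7 CPM in the other 7. The part of such cells in the results below was not tested.

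**Figure D1:**
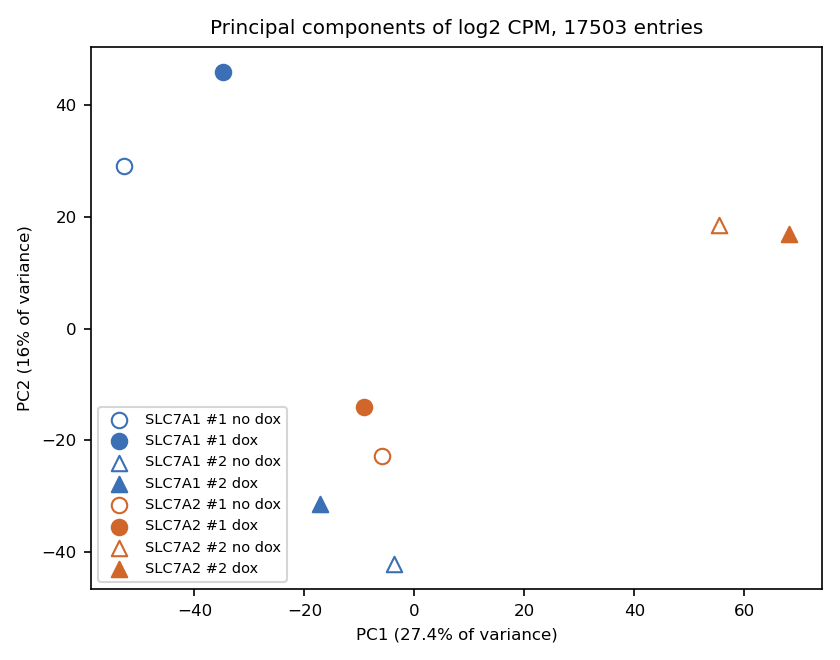
Principal components of log2 CPM over 17503 entries, with the first (27.4% of variance) on the x axis and the second (16%) on the y axis; each point is 1 library, with colour for the line, shape for the number and fill for dox. Both SLC7A2-line libraries numbered 2 lie at the right, at 55.3 and 68.1, apart from the other 6.

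The constructs were read first. SLC7A2_Flag had 0, 0, 0.0561 and 0 CPM in the SLC7A1 line, where the single positive value is 1 expected count, and 0.570, 9.46, 265 and 4670 CPM in the SLC7A2 line. Construct level in the SLC7A2 line was uneven, with both libraries numbered 2 above their numbered 1 counterparts. SLC7A1_endo_Flag had 0.290, 0, 839.6 and 378 CPM in the SLC7A1 line and was at 0 in each of the 4 SLC7A2-line libraries. Endogenous SLC7A1 (Entrez 6541, chromosome 13, 29509414 to 29595688 in GRCh38.p14) had 76.0, 73.3, 132 and 97.1 CPM among SLC7A1-line libraries, against 60.3, 75.3, 65.8 and 94.5 CPM among SLC7A2-line libraries. These ranges overlapped, and the difference of -0.34 ± 0.17 on the log2 scale (SE) did not pass (edgeR adjusted p = 0.301). Whether construct reads were counted to this gene was not tested. SLC19A1, the knocked-out carrier, had 124 to 153 CPM in the SLC7A1 line and 124 to 159.8 CPM in the SLC7A2 line, with a difference of 0.06 ± 0.09 (adjusted p = 0.738). With no unedited cells in the comparison, these counts do not check the knockout.

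With dox and number as covariates, edgeR's quasi-likelihood test called 256 of 17503 entries at an adjusted p under 0.05, which is 1.46%. Of these, 106 (0.606%) were higher and 150 (0.857%) lower in the SLC7A2 line. Genes with a symbol made up 218 of the calls (102 higher and 116 lower), assembled loci without a symbol 36, and construct entries 2. Most differences were small: the median size was 0.55 on the log2 scale among the symbol genes called higher and 0.59 among those called lower, and 33 exceeded 1. All entries tested had a median of -0.003 with 49.5% above 0. In 191 of the 256 called entries the 4 libraries of one line did not overlap the 4 of the other, and 254 had the same sign in all 4 pairs of libraries matched on dox and number. Over all 17503 entries, 1656 (9.46%) did not overlap, 762 of them higher (4.35%) and 894 lower (5.11%). The same sign in all 4 pairs was found in 4715 of all 17503. Calls came from these same libraries, so both counts describe the called entries and do not test them.

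The calls rest on the number as a covariate. Without it edgeR called 0 entries, with 2242 at an unadjusted p under 0.05 against 3671 with it, and DESeq2 with it called 1480, or 8.46% (764 higher, 716 lower, or 51.6% higher against 41.4% in edgeR). Limma on log2(TPM + 1) called 1150 higher and 288 lower, or 80% higher. Leaving out 1 library left 5 to 71 calls. The line difference depended on the number for many entries: their interaction passed for 500 of 17503. The main fit treated same-numbered libraries of a line as independent, apart from a number effect shared by both lines. Yet the number differences of no-dox and dox libraries correlated within each line (0.197 for SLC7A1 and 0.312 for SLC7A2). A line may thus hold fewer independent units than libraries, and the SE, p-values and lack of overlap do not allow for that. In a separate edgeR model the interaction of line and dox passed for 0 (314 at an unadjusted p under 0.05). That model had no term for line by number, so such variation stayed in its residual. The counts of the interactions therefore cannot be compared, and the 0 does not show that the line difference was the same with dox. Without both SLC7A2-line libraries numbered 2, a choice made after seeing the data, 263 entries (1.5%) were called, of which 88 were among the 256. All 256 kept their sign, but the remaining libraries were also in the fit that gave the 256, so this is no independent test. With number in that fit, its line difference compares libraries numbered 1 only, as does the fit without number 2. The SLC7A1-line libraries numbered 2 then inform only the number effect, the dox effect and the spread. Here and below, these settings are therefore not separate checks.

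Heat shock genes were higher in the SLC7A2 line. Chaperones of this group fold new and damaged proteins, and heat shock factor 1 drives many of them through paired GAA and TTC blocks in their promoters. Of 15 tested members 10 were called higher and 0 lower, against 0.606% of all entries called higher, all 15 lay above 0, and their median was 0.63 on the log2 scale against -0.003 over all entries. In 7 of the 15 the lines did not overlap, against 4.35% of all entries. As a sum, the list took 0.5129%, 0.7457%, 0.5002% and 0.7789% of the counts of the SLC7A1-line libraries. In the SLC7A2 line it took 0.7785%, 1.162%, 0.7806% and 1.129%. These sums overlapped, since the SLC7A1-line dox library numbered 2 lay just above the SLC7A2-line no-dox library numbered 1. Without the number as a covariate 0 of the 15 were called, with all 15 above 0 and a median of 0.658. HSPA8 (Entrez 3312, chromosome 11, 123057489 to 123062462), the constitutive cytosolic HSP70, had 524, 1025, 456 and 1137 CPM in the SLC7A1 line. SLC7A2-line libraries held 1287, 2843, 1236 and 2423 CPM. The lowest SLC7A2-line library lay above the highest SLC7A1-line library, and in both lines the libraries numbered 2 were above those numbered 1. Its log2 difference was 1.32 ± 0.08 (SE; adjusted p = 0.00183).

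HSPA1A, the stress-inducible HSP70, had 14.8, 29.9, 19.8 and 34.4 CPM among SLC7A1-line libraries, against 36.4, 65.3, 36.8 and 68.5 CPM among SLC7A2-line libraries, a log2 difference of 1.08 ± 0.09 (adjusted p = 0.0074). Its near-identical copy HSPA1B had 0.83 ± 0.09 (adjusted p = 0.017), and reads of these copies cannot be assigned with certainty. HSPH1, a nucleotide exchange factor of HSP70, had 25.1, 65.9, 30.8 and 59.3 CPM against 64.0, 135.5, 68.8 and 169 CPM. Here the lines overlapped at one point, since the SLC7A1-line no-dox library numbered 2 lay above the SLC7A2-line no-dox library numbered 1, and the fitted difference was 1.26 ± 0.09 (adjusted p = 0.00484). CHORDC1, an HSP90 partner, had 8.11, 13.8, 7.46 and 13.5 CPM against 14.8, 31.0, 14.2 and 42.7 CPM, with 1.17 ± 0.16 (adjusted p = 0.0299). HSP90AA1, the inducible cytosolic HSP90, had 377, 720.3, 433 and 752 CPM against 783, 1130, 830.3 and 1275 CPM, with 0.85 ± 0.08 (adjusted p = 0.0104). In HSPA1A, CHORDC1 and HSP90AA1 every SLC7A2-line library lay above every SLC7A1-line library. Lack of overlap was a condition of a rule by which HSPA8, HSPA1A and CHORDC1 were named. The remaining called members were DNAJA1, a J-domain partner of HSP70 (0.82 ± 0.11), the small heat shock protein HSPB1 (0.63 ± 0.07), the co-chaperone STIP1 (0.53 ± 0.08) and the mitochondrial chaperonin HSPD1 (0.49 ± 0.08). Members that did not pass were HSPE1 (0.55), FKBP4 (0.58), DNAJB1 (0.37), BAG3 (0.28) and HSP90AB1 (0.18). The list also differed between numbers, with a median of 0.55 for number 2 minus number 1. Its medians in the 4 matched pairs were 0.63, 0.79, 0.67 and 0.76 (no dox 1, no dox 2, dox 1, dox 2). Its median was 0.66 without both SLC7A2-line libraries numbered 2, with 8 members called higher and 14 of 15 above 0.

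The promoters of 3 of these genes are shown because their members had the highest fold changes of the list with a match, from 250 bases before to 50 bases after the start given by RefSeq in GRCh38.p14. Capitals mark each match to GAANNTTC or TTCNNGAA, 8-letter words that read the same on both strands. Matches may overlap, and adjoining matches print as 1 run of capitals. The HSPA8 window lies at chr11:123062087-123062386 on the minus strand and holds 4 matches, the CHORDC1 window at chr11:90223000-90223299 on the minus strand with 6, and the HSPA1A window at chr6:31815293-31815592 on the plus strand with 1.
HSPA8: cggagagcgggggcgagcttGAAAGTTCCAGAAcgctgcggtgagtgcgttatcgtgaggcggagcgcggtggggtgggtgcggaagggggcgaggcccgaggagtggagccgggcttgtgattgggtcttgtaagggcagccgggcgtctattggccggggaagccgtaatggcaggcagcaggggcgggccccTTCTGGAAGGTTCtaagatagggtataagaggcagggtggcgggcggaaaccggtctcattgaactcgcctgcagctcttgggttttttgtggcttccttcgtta
CHORDC1: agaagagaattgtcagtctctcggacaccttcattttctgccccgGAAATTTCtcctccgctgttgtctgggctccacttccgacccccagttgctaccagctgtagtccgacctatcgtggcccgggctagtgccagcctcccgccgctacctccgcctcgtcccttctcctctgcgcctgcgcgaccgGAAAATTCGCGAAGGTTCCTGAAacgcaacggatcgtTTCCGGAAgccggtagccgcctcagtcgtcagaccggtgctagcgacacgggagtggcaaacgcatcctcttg
HSPA1A: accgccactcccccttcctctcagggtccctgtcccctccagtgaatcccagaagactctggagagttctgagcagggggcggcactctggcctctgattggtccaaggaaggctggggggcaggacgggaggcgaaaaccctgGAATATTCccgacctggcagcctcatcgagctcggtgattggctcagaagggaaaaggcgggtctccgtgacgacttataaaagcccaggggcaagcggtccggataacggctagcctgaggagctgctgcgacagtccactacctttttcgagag

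Such a match was found in 6 of the 14 heat shock promoters in the table (42.9%), FKBP4 not being listed. All 6 belonged to the 10 called members, and 0 of the 4 listed members that were not called held one. Among all 35116 promoters of 300 bases 4737 held a match (13.5%), as did 10.0% of those of tested genes, 15.9% of 88 called higher and 18.5% of 92 called lower. Promoters with 2 or more matches made up 1.7% of all, and 3 of the 14 heat shock promoters, those of HSPA8, CHORDC1 and DNAJA1. HSPH1, HSP90AA1, STIP1 and HSPD1, all called higher, had none of these letters in their windows. A match describes the sequence only and no match concerns this window alone.

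Cytosolic ribosomal protein genes were lower in the SLC7A2 line. Their products build both subunits of the ribosome. Of 41 tested members 15 were called lower and 0 higher, against 0.857% of all entries called lower, all 41 lay below 0, and their median was -0.39 on the log2 scale. In 29 of 41 the lines did not overlap, against 5.11% of all entries. Summed over the list, they took 10.7%, 8.82%, 9.88% and 9.41% of the counts of the SLC7A1-line libraries. In the SLC7A2 line they took 8.40%, 7.04%, 8.23% and 6.46%. Every SLC7A2-line library was below every SLC7A1-line library, and both libraries numbered 2 were the lowest of the SLC7A2 line. RPLP1, an acidic stalk protein (Entrez 6176, chromosome 15, 69452818 to 69456205), had 5066, 3448, 5125 and 4250 CPM against 3170, 2150, 3127 and 1858 CPM, a log2 difference of -0.82 ± 0.09 (SE; adjusted p = 0.0193). RPLP0, the stalk protein to which it binds, had 5096, 3958, 4771 and 4161 CPM against 3666, 2504, 3474 and 2409 CPM, with -0.60 ± 0.07 (adjusted p = 0.0201). RPS18, a small subunit protein, had -0.56 ± 0.08 (adjusted p = 0.0359) and RPL30 -0.51 ± 0.07 (adjusted p = 0.0335). Ribosomal protein genes have many processed copies in the genome, so how the authors' counting divided their reads is uncertain. Without the 2 members on chromosome 15, RPL4 and RPLP1, the median was -0.38. On log2(TPM + 1) it was -0.25, with 40 of 41 below 0 and an all-entry median of 0.09. Only 2 of the 41 were called without both SLC7A2-line libraries numbered 2 and only 1 without either number, with medians of -0.30, -0.46 without number 1 and -0.30 without number 2. The first and the last of these medians both compare libraries numbered 1 only. Ribosome biogenesis and MYC-linked genes had a median of 0.22 with 0 of 17 called in edgeR (8 at an unadjusted p under 0.05, 5 in DESeq2). For tRNA synthetases it was 0.06 with 0 of 20 called (4 at an unadjusted p under 0.05, and DESeq2 called 1 higher and 1 lower). Of all entries DESeq2 called 8.46%.

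Several genes of MHC class I, which presents peptides from the cell interior to T cells, were lower in the SLC7A2 line. Of 12 tested members of the class I list 5 were called lower and 0 higher, against 0.857% of all entries called lower. Among the 5 were HLA-B, HLA-C, HLA-E and B2M, the light chain. HLA-B had 1462, 1214, 1282 and 1196 CPM among SLC7A1-line libraries, against 904, 581, 869 and 549 CPM among SLC7A2-line libraries, with a log2 difference of -0.86 ± 0.10 (SE; adjusted p = 0.0213). HLA-E, the ligand of NKG2A, had 263, 213, 228 and 206 CPM against 193, 144, 171 and 128 CPM, with -0.53 ± 0.07 (adjusted p = 0.0277). The lines did not overlap for HLA-B or HLA-E, and both libraries numbered 2 of the SLC7A2 line were the lowest of all 8. HLA-C had -0.45 ± 0.07 (adjusted p = 0.0374), and B2M, which lies on chromosome 15, had -0.57 ± 0.10 (adjusted p = 0.0446). HLA genes are similar in sequence and polymorphic, so the split of reads between them is uncertain. Members that prepare or load peptides did not pass, with TAP1 at -0.03, TAP2 at 0.11, TAPBP at -0.18, PSMB8 at -0.16 and PSMB9 at -0.39, nor did their activator NLRC5 at 0.05. HLA-F, like HLA-E a nonclassical class I gene, had 17.3, 11, 23.9 and 13.9 expected counts among SLC7A1-line libraries. The SLC7A2-line libraries held 2.72, 0, 3 and 0. Every SLC7A2-line library was at or under the floor of 3 counts, and edgeR did not call the gene (adjusted p = 0.0713). The class I list had 2 members called and a median of -0.30 without both SLC7A2-line libraries numbered 2, against -0.42 with all libraries.

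Among MHC class II genes, CD74, the invariant chain, was lower, with 118.5, 90.6, 110.1 and 92.6 CPM against 64.3, 22.6, 67.5 and 25.1 CPM and a log2 difference of -1.35 ± 0.23 (SE; adjusted p = 0.0434). Without both SLC7A2-line libraries numbered 2 the difference was -0.79 (adjusted p = 0.0301). HLA-DMA, which exchanges class II peptides, had 0.160 to 0.912 CPM in the SLC7A2 line and a difference of -1.73 ± 0.46 that did not pass (adjusted p = 0.0997). HLA-DRB1 had -0.70 and the class II activator CIITA 0.34, and neither passed. Interferon-stimulated genes had 1 of 32 members called, against 1.46% of all entries, and a median of -0.17. The called member was STAT2, a transcription factor of interferon signalling, at -0.74 ± 0.12 (adjusted p = 0.0426). Genes of cGAMP sensing and transport had 0 of 13 called in edgeR and a median of 0.06, with STING1 at -0.17 and CGAS at 0.18. Of these genes 3 had an unadjusted p under 0.05, and DESeq2 called 2, against 8.46% of all entries. In bulk RNA a lower share of cells that express a gene and less RNA per cell cannot be told apart.

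Myeloid surface receptors and granule genes differed in both directions. SLAMF8, a SLAM-family receptor of myeloid cells (Entrez 56833, chromosome 1, 159826873 to 159837492), had the largest difference of any called symbol gene chosen for naming, with 0.869, 1.85, 0.953 and 2.25 CPM in SLC7A1-line libraries. There were 12.6, 54.6, 10.8 and 46.3 CPM in SLC7A2-line libraries. The lines did not overlap, which was a condition of a rule by which SLAMF8 was named. In the SLC7A2 line the libraries numbered 2 were far above those numbered 1. The log2 difference was 4.24 ± 0.22 (SE; adjusted p = 0.00151), and 3.68 (adjusted p = 0.0215) without both SLC7A2-line libraries numbered 2. S100A9, a calprotectin subunit of monocytes and neutrophils, had 3.19, 6.85, 4.77 and 9.62 CPM against 11.7, 28.3, 11.6 and 28.9 CPM, with 1.70 ± 0.15 (adjusted p = 0.00856). LYZ, lysozyme, had 196, 173, 158 and 149 CPM against 237, 268, 212 and 203 CPM, with 0.45 ± 0.07 (adjusted p = 0.0426). MMP9, a secreted gelatinase, had 5.04 to 10.52 CPM against 7.87 to 26.4 CPM with overlap, and 1.11 ± 0.17 (adjusted p = 0.0378).

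Several receptors went the other way. CSF3R, the G-CSF receptor, had 224, 165, 192 and 154 CPM against 137, 80.0, 137 and 73.0 CPM, a log2 difference of -0.83 ± 0.11 (adjusted p = 0.0277). FCGR1A, the high-affinity IgG receptor, had 14.95, 9.25, 10.9 and 9.91 CPM against 5.36, 4.97, 6.15 and 3.94 CPM, with -1.13 ± 0.16 (adjusted p = 0.0335). FCGRT, the neonatal Fc receptor, had -0.75 ± 0.13 (adjusted p = 0.0434) and TYROBP, the adaptor DAP12, -0.71 ± 0.12 (adjusted p = 0.0451). MARCO, a scavenger receptor, had 11.8, 6.09, 10.6 and 8.22 CPM against 5.42, 2.03, 5.45 and 2.05 CPM, with -1.41 ± 0.22 (adjusted p = 0.0374). FCER2, the low-affinity IgE receptor CD23, had 9.73, 3.86, 10.0 and 4.05 CPM against 2.22, 1.60, 2.61 and 1.43 CPM, with -1.71 ± 0.21 (adjusted p = 0.0263). In each of CSF3R, FCGR1A, MARCO and FCER2 all 4 SLC7A2-line libraries lay below all 4 SLC7A1-line libraries. Lack of overlap was a condition of a rule by which MARCO and FCER2 were named.

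Over all entries 0.606% were called higher and 0.857% lower. As groups, the SLAM and Fc receptors had 1 of 17 members called higher and 3 lower with a median of -0.43, and the macrophage differentiation genes 1 of 12 higher and 2 lower with -0.46. The monocytic markers had 1 of 19 higher and 2 lower with -0.37, and the myeloid granule proteins 1 of 15 higher and 1 lower with -0.09. The receptor median depended on the number: in the matched pairs it was -0.64 and -0.82 for number 1 and -0.31 and 0.23 for number 2. Azurocidin, AZU1, with -0.93 ± 0.20, did not pass (adjusted p = 0.0667). Myeloperoxidase, MPO, had 0.44 ± 0.44 (adjusted p = 0.629). CFD, complement factor D, was lower at 118, 62.5, 91.4 and 62.3 CPM against 60.0, 19.8, 59.2 and 21.1 CPM, with -1.20 ± 0.18 (adjusted p = 0.0359). TPSAB1, a mast cell and basophil tryptase with near-identical copies, had 590.3, 258, 518 and 265 CPM against 188, 142, 188 and 129 CPM, with -1.26 ± 0.13 (adjusted p = 0.0154). Of the myeloid transcription factors 1 of 20 was called higher and 1 lower. MEIS1, a HOX partner, had 57.9, 91.7, 72.2 and 85.7 CPM against 100.6, 126, 99.7 and 123 CPM, with 0.56 ± 0.09 (adjusted p = 0.0391). EGR1, an immediate early gene, had 52.6, 8.49, 29.6 and 7.99 CPM against 12.1, 3.69, 12.2 and 3.79 CPM, with -1.46 ± 0.20 (adjusted p = 0.0313). For EGR1 the lines overlapped, since the SLC7A1-line libraries numbered 2 lay below the SLC7A2-line libraries numbered 1.

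**Figure D2:**
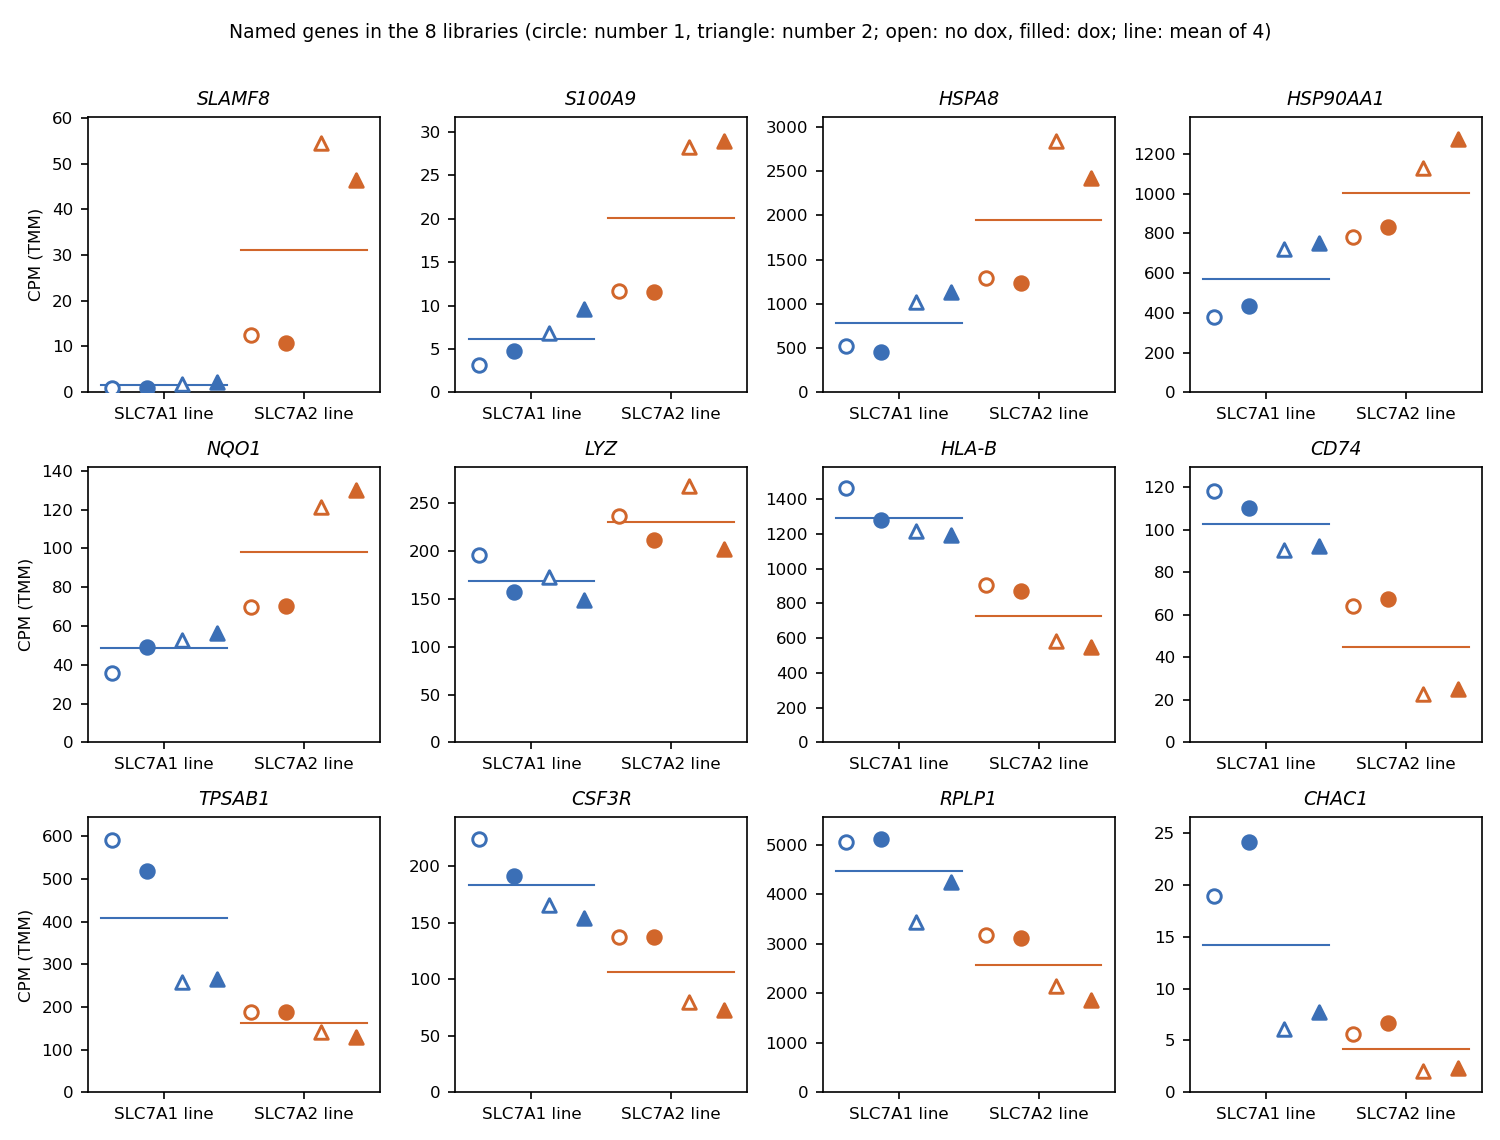
CPM after TMM scaling (y axis, from 0) of 12 called genes in the 8 libraries, with the SLC7A1 line in blue and the SLC7A2 line in orange (x axis); circles are number 1, triangles number 2, filled points dox, and the horizontal line is the mean of 4 libraries. In the upper panels such as SLAMF8 and HSPA8 the SLC7A2-line libraries numbered 2 are the highest, and in panels such as CD74 and RPLP1 they are the lowest.

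Other genes with high fold changes were of mixed kind. POU2F2, the transcription factor Oct-2 of B cells, had 1.04, 1.80, 1.79 and 1.52 CPM against 5.25, 11.0, 6.50 and 10.8 CPM, with a log2 difference of 2.39 ± 0.25 (adjusted p = 0.0154). CRACDL had 8.61 to 10.8 CPM against 22.4 to 58.2 CPM (1.91 ± 0.32), and LONP2, the peroxisomal Lon protease, 3.30 to 16.7 CPM against 25.1 to 36.1 CPM (1.67 ± 0.27). ACTL8, an actin-like gene (2.60 ± 0.34), KRT81, a hair keratin with a close copy (2.33 ± 0.39), ELFN1 (1.25 ± 0.19) and CHST2, a carbohydrate sulfotransferase (1.00 ± 0.18), completed the 12 highest. Among the 12 lowest, PLD4, an endolysosomal exonuclease, had 14.5, 9.14, 13.5 and 8.89 CPM against 4.39, 1.98, 5.10 and 3.07 CPM, with -1.70 ± 0.17 (adjusted p = 0.0154). APOBEC3G, a cytidine deaminase that restricts retroviruses, had 7.56 to 10.54 CPM against 2.19 to 5.19 CPM (-1.33 ± 0.20), and HSPG2, the proteoglycan perlecan, 58.2 to 87.5 CPM against 20.1 to 46.6 CPM (-1.17 ± 0.19). GSG1 (-2.24 ± 0.36), RASA4B, which has a close copy (-1.48 ± 0.22), IQSEC3 (-1.15 ± 0.17) and BMF, a BH3-only protein on chromosome 15 (-1.15 ± 0.15), were also lower. With those above, 24 such genes were taken in order of fold change among called genes without overlap. The assembled locus XLOC_015460 had 0 counts in all 4 SLC7A1-line libraries and 175, 115, 49.6 and 129 in the SLC7A2 line, at least 157-fold higher against 3 counts over the group (adjusted p = 0.0352). XLOC_015187 had 25.5, 16.5, 48.9 and 42.2 counts among SLC7A1-line libraries, against 0 among SLC7A2-line libraries, at least 44.1-fold lower (adjusted p = 0.0425).

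The amino acid lists had 0 to 2 members called in edgeR. Over all entries edgeR called 0.606% higher and 0.857% lower, and DESeq2 called 8.46% in either direction. In the list of cationic amino acid transport and arginine use 1 of 17 members was called: ASS1, which makes argininosuccinate from citrulline, was lower at 543, 331, 517 and 362 CPM against 339.7, 251, 377 and 275 CPM, with -0.48 ± 0.07 (SE; adjusted p = 0.035). For ASS1 the lines overlapped, since an SLC7A1-line library numbered 2 (331 CPM) lay below both SLC7A2-line libraries numbered 1. In this list 8 of 17 members had an unadjusted p under 0.05 in edgeR, and DESeq2 called 3 higher and 2 lower. The other amino acid transporters had 0 of 18 called in edgeR (2 at an unadjusted p under 0.05, 2 in DESeq2) and a median of 0.12. Genes of mTORC1 nutrient sensing had 0 of 26 called (5 at an unadjusted p under 0.05, and DESeq2 called 2 higher and 1 lower) and a median of -0.02. ATF4 response genes, which amino acid shortage induces, had 2 of 25 called, both lower. CHAC1, a glutathione-degrading enzyme on chromosome 15, had 18.9, 6.15, 24.1 and 7.71 CPM against 5.59, 2.09, 6.67 and 2.304 CPM, with -1.73 ± 0.12 (adjusted p = 0.00484). PCK2, mitochondrial PEPCK, had 237.5, 155, 269.7 and 172 CPM against 152, 110.3, 183 and 139.7 CPM, with -0.50 ± 0.07 (adjusted p = 0.0359). Both genes were higher in number 1 than in number 2 within each line, and for both the lines overlapped. The ATF4 list as a whole depended on the number. Its median was -0.48 and -0.56 in the matched pairs numbered 1, and 0.02 and 0.23 in those numbered 2. Without both SLC7A2-line libraries numbered 2 it was -0.56 with 11 members called lower, and without number 1 it was 0.11 with 0 called.

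Over all entries edgeR called 0.606% higher and 0.857% lower, DESeq2 called 8.46% in either direction, and 49.5% lay above 0. Cholesterol synthesis genes had 1 of 22 members called higher, a median of 0.40 and 18 of 22 above 0. The median was 0.63 and 0.81 in the pairs numbered 1 and -0.06 and 0.27 in those numbered 2, and without both SLC7A2-line libraries numbered 2 it was 0.74 with 12 called. DESeq2 called 11 of the 22. NRF2 targets had 2 of 17 called higher (7 in DESeq2) with a median of 0.32. NQO1, a quinone reductase, had 35.5, 52.6, 49.2 and 56.6 CPM against 69.8, 121.5, 70.2 and 130.3 CPM, with 0.97 ± 0.13 (adjusted p = 0.0274), and PGD of the pentose phosphate pathway had 0.47 ± 0.06 (adjusted p = 0.0274). That list had 0 called in edgeR and a median of 0.13 without both SLC7A2-line libraries numbered 2. The unfolded protein response had 2 of 20 called higher (8 in DESeq2) with a median of 0.28: HSPA5, the HSP70 of the endoplasmic reticulum (0.62 ± 0.11, adjusted p = 0.0493), and its J-domain partner DNAJB11 (0.63 ± 0.07, adjusted p = 0.0182). For HSPA5 the lines overlapped (626.9 CPM in the SLC7A1-line no-dox library numbered 2, 596.2 CPM in the SLC7A2-line dox library numbered 1). The unfolded protein response list had 7 called higher and a median of 0.39 without both SLC7A2-line libraries numbered 2. Without number 1 it had 0 called and a median of 0.22. TFRC, the transferrin receptor, was higher at 68.7, 128, 54.3 and 78.3 CPM against 133, 242, 97.6 and 185 CPM, with 0.99 ± 0.09 (adjusted p = 0.00856) and overlapping lines. MTRR, methionine synthase reductase, was the 1 of 18 folate pathway genes called, at 0.75 ± 0.11 (adjusted p = 0.0359). DDB2, a p53 target in nucleotide excision repair, was lower (-0.68 ± 0.11, adjusted p = 0.0432), as was the Ras exchange factor RASGRP4 (-0.77 ± 0.12, adjusted p = 0.0374).

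In several housekeeping, cell cycle and immune lists edgeR called 0 members, against 1.46% of all entries (8.46% in DESeq2). Respiratory chain subunits had a median of -0.04 over 37 tested (2 at an unadjusted p under 0.05, 0 in DESeq2). Glycolysis and hypoxia genes had -0.13 over 29 (8 unadjusted, and 1 higher and 2 lower in DESeq2). Genes of G1/S and replication had 0.01 over 22 (4 unadjusted, 2 in DESeq2) and G2/M genes 0.10 over 26 (10 unadjusted, 4 in DESeq2). Chromatin regulators had 0.07 over 24 (6 unadjusted, 4 in DESeq2), and integrins and adhesion genes -0.01 over 22 (5 unadjusted, and 1 higher and 2 lower in DESeq2). Genes of NF-kB and cytokines had -0.20 over 17 (5 unadjusted, 1 in DESeq2). Some of these medians changed sign with the number. In the matched pairs the glycolysis and hypoxia median was 0.07 and 0.12 for number 1 and -0.31 and -0.375 for number 2. Without number 1 edgeR called 7 of those 29 genes lower, against 200 of all 17503 entries. The NF-kB and cytokine median was -0.21 and -0.45 for number 1 and 0.34 and 0.17 for number 2. GAPDH had 5858 to 6551 CPM in the SLC7A1 line and 5038 to 6852 CPM in the SLC7A2 line, with a difference of -0.01 ± 0.08.

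**Figure D3:**
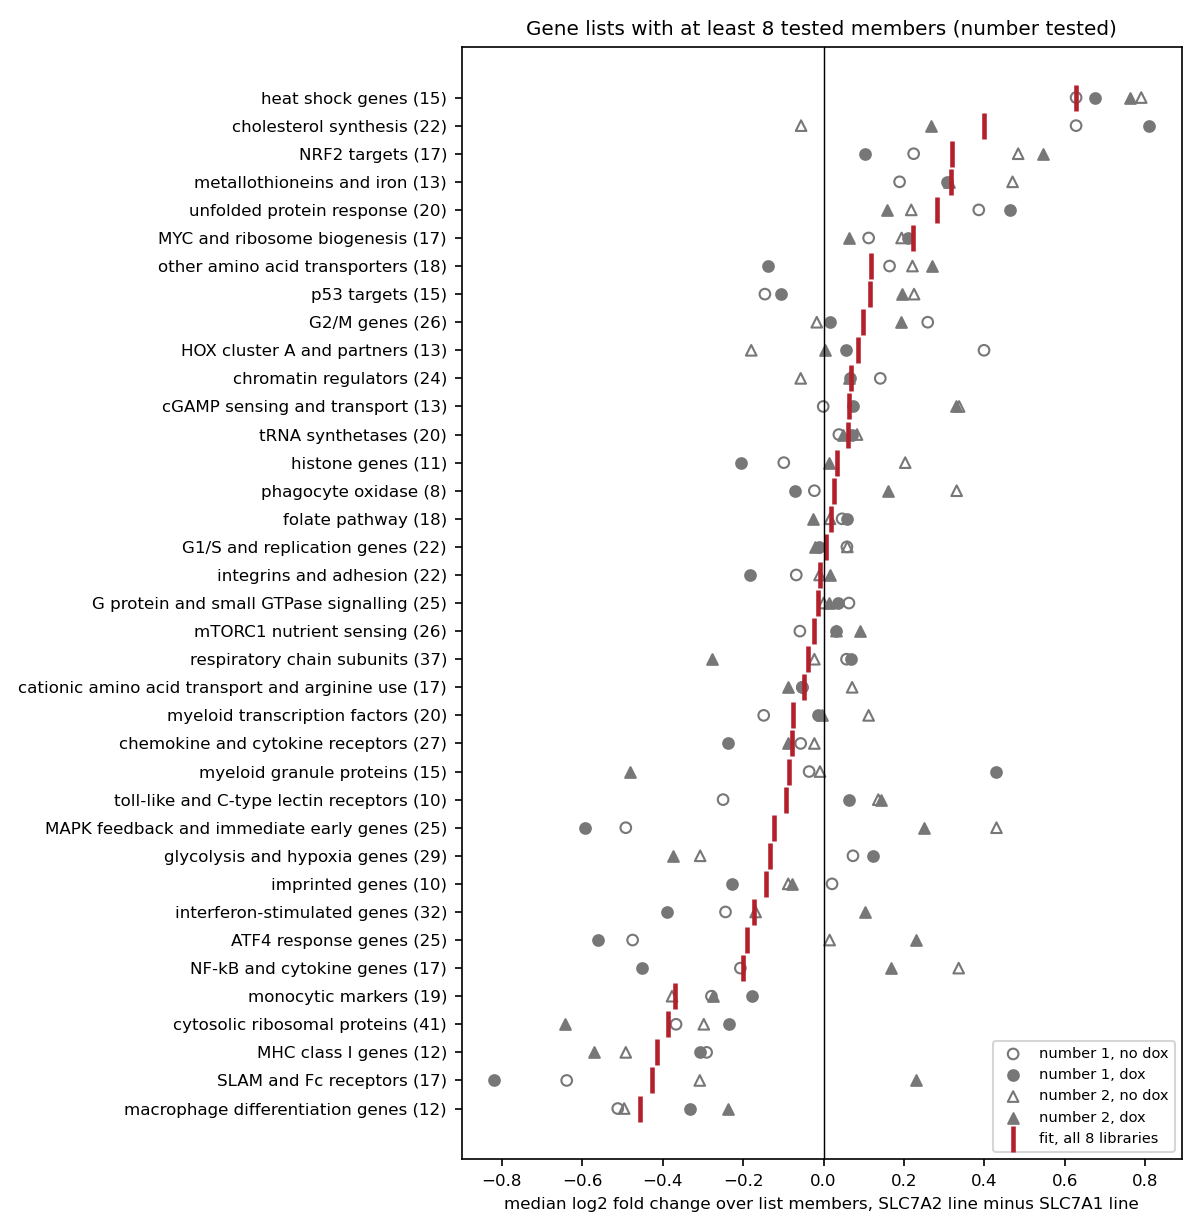
Median log2 fold change (SLC7A2 line minus SLC7A1 line, x axis) of each gene list with at least 8 tested members (y axis, number tested in brackets); the red bar is the fit over 8 libraries and the points are the 4 pairs matched on dox and number. Heat shock genes lie at the top at 0.63 with all 4 pairs between 0.63 and 0.79, while the ATF4 list spans pairs from -0.56 to 0.23.

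Genes of chromosome 15 had a lower median in the SLC7A2 line, along the whole chromosome. Where the mean log2 CPM reached 1 or more, the 353 tested symbol genes of chromosome 15 had a median log2 difference of -0.24, and the 10032 genes elsewhere had 0.04. Below 0 lay 301 of the 353 (85.3%), against 44.0% elsewhere. In 64 (18.1%) all 4 SLC7A2-line libraries were below all 4 SLC7A1-line libraries, against 4.9% elsewhere. In 4 (1.1%) they were above, against 6.1% elsewhere. EdgeR called 18 lower and 0 higher, against 98 lower and 102 higher of the 10032 genes elsewhere. DESeq2 called 75 of the 353, 74 of them lower, against 8.46% of all entries in either direction. The medians of the other chromosomes ran from -0.04 (chromosome 22) to 0.09 (chromosomes 2 and 10).

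Relative to the mean of the SLC7A1 line, the chromosome 15 median of log2 CPM was -0.02, 0.02, 0.004 and 0.01 in the SLC7A1-line libraries. In the SLC7A2-line libraries it was -0.13, -0.40, -0.13 and -0.33. The lines did not overlap, and within the SLC7A2 line both libraries numbered 2 lay below both numbered 1. In the matched pairs the medians were -0.10, -0.42, -0.13 and -0.33. Without both SLC7A2-line libraries numbered 2 the median was -0.10, with 7 genes called lower, and without number 1 it was -0.36. Genes of low, middle and high expression had medians of -0.34, -0.22 and -0.23. On log2(TPM + 1) chromosome 15 had -0.10 and the genes elsewhere 0.15.

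**Figure D4:**
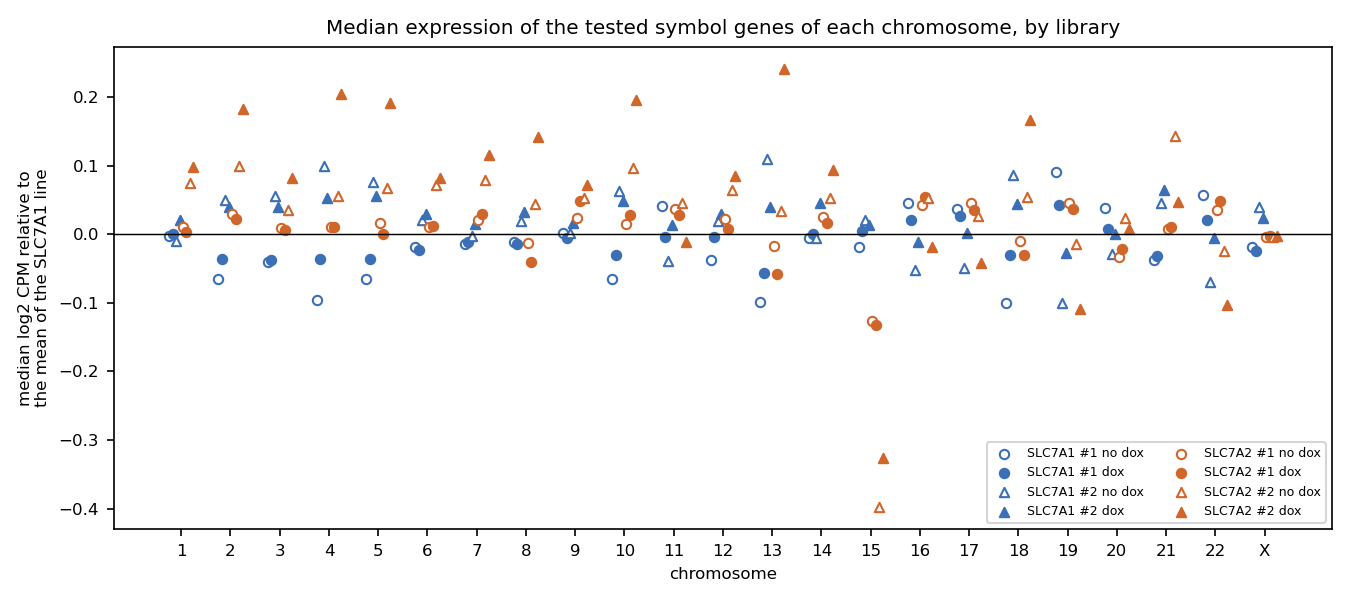
Median log2 CPM of the tested symbol genes of each chromosome (x axis) relative to the mean of the SLC7A1 line (y axis), with 1 point per library. On chromosome 15 the SLC7A2-line libraries lie at -0.13, -0.40, -0.13 and -0.33 and the SLC7A1-line libraries near 0.

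Split into windows of 25 neighbouring genes, chromosome 15 gave 14 windows, all with a median below 0, from -0.37 to -0.11. The lowest ran from ZNF774 to SELENOS (90352284 to 101277485). Of the 405 windows of the genome, 12 had a median below -0.2 and 11 of these were on chromosome 15. The 391 windows of the other chromosomes ran from -0.21 to 0.24. Of 56 medians over windows and matched pairs on this chromosome 55 were below 0. The 18 called genes lay between BMF (from 40087890) and FURIN (from 90868588). They included RPL4 and RPLP1 of the ribosome, B2M, CHAC1, the lysosomal enzymes HEXA and CTSH, and MAN2C1, a cytosolic alpha-mannosidase. MAN2C1 had a log2 difference of -0.94 ± 0.10 (adjusted p = 0.0154) and HEXA -0.72 ± 0.10 (adjusted p = 0.0284). Both differences exceeded the chromosome median in size, but both genes were taken from the called ones, a choice that favours large differences. Without the members on this chromosome, the ATF4 list had a median of -0.17 and the class I list -0.39.

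Next in order came the first 3 windows of chromosome 3, a region chosen after its values were seen. Over these 75 genes, from TRNT1 to RPL15 (3126940 to 23946562), the median was -0.20, and 53 lay below 0, against a median of 0.06 for the other 521 genes of that chromosome. The medians were -0.40 without and -0.33 with dox in the pairs numbered 2, and -0.02 in both pairs numbered 1. EdgeR called 1 of the 75, against 1.46% of all entries. This was RPL32 (-0.55 ± 0.10, adjusted p = 0.0475).

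**Figure D5:**
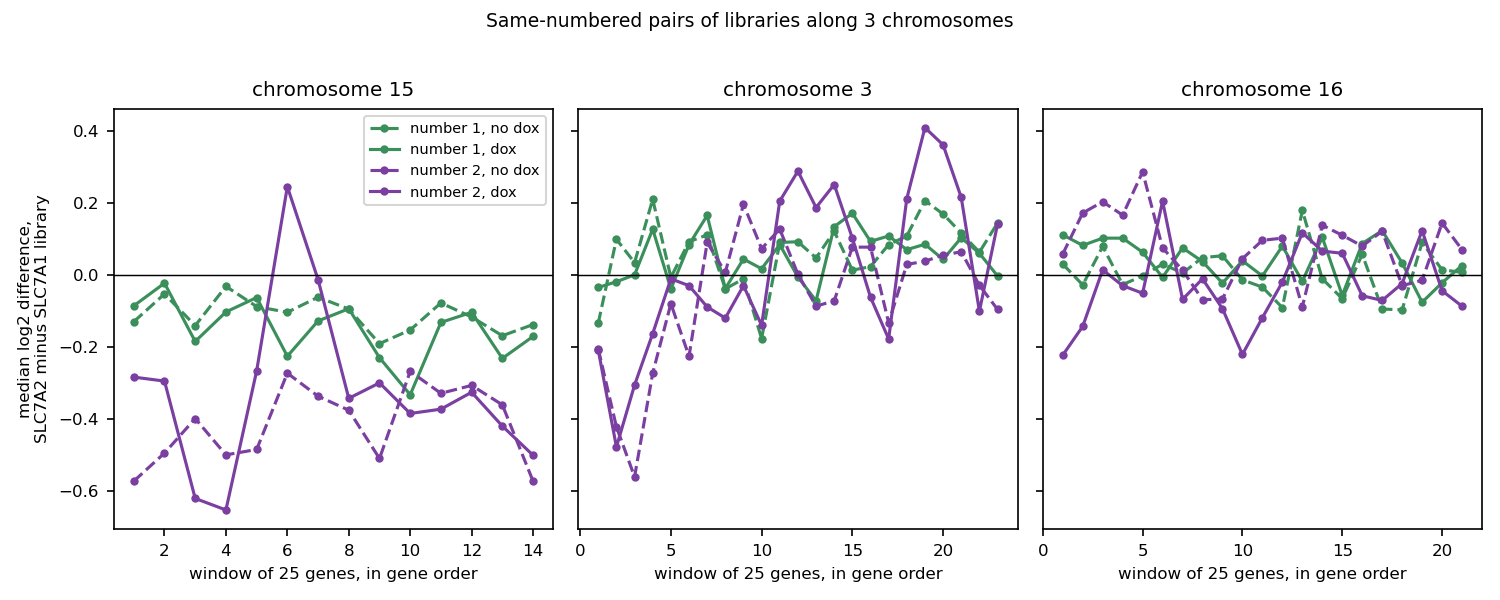
Median log2 difference between the SLC7A2-line and the SLC7A1-line library of each matched pair (y axis) in windows of 25 genes in gene order (x axis) on chromosomes 15, 3 and 16; colour marks the number and dashes no dox. On chromosome 15 all pairs stay below 0 except 1 window of 1 pair, and at the start of chromosome 3 only the pairs numbered 2 dip.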

How the data were processed

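Expected counts, TPM, FPKM and gene length per entry were deposited by the authors for each library, and per the submitters' processing notes HISAT, Bowtie2 2.3.4.3, RSEM 1.3.1 and DESeq2 1.4.5 were used with hg38. The strand setting of the counting was not given in the sources used here. Reads of a gene and of an antisense or overlapping partner therefore cannot be told apart. An entry absent from a library was set to 0. Expected counts were rounded to whole numbers for the tests. Library totals of 17309132 to 18441833 put a floor of 3 counts at 0.163 to 0.173 CPM, for counting error only. Deposited TPM was used only for an alternative test on log2(TPM + 1), and deposited FPKM and gene length values entered no test.

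Low entries were removed (edgeR's expression filter, minimum count 10 and total 15), which left 17503 of 22653. EdgeR 4.0.16 in R 4.3.3 fitted line, dox and number to all 8 libraries with TMM scaling, quasi-likelihood tests and Benjamini-Hochberg adjustment over all 17503 (threshold 0.05). ± is the SE. The scripts were tested on simulated data in which both lines shared the number effect, so this checked the code and not the calls. Alternatives were DESeq2 1.42.0, limma 3.58.1 on log2(TPM + 1), other scaling, no filter, other designs, and leaving out libraries. Whether same-numbered libraries deviate together was checked: the correlation was 0.197 and 0.312 within the SLC7A1 and SLC7A2 lines, and -0.024 to 0.150 across lines, so the number was not shown to pair the lines. It stayed a covariate because the comparison was defined with it.

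Genes were named by rule: the constructs and carriers, the 12 highest and 12 lowest called genes without overlap and with mean log2 CPM of at least 1, entries present in 1 line only, and up to 4 called members per list. Other list members were chosen after their values were seen. The members and gene lists were chosen with earlier results of these data known. Some genes that the rule would name are not reported here.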

Additional observations from a re-analysis of the deposited data

Results flagged for a closer look

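In 4 of 124 sets of 4 libraries (62 named genes in each line), 1 library lay far from the other 3 by Dixon's criterion, and chance alone gives about 1 in 20. SLC7A2_Flag had 0.0561 CPM in the SLC7A1-line dox library numbered 1 and 0 in the other 3, which is 1 expected count and below the floor of 3. SLC7A2_Flag had 4670 CPM in the SLC7A2-line dox library numbered 2, against 0.570 to 265 CPM in the others. IQSEC3, lower in the SLC7A2 line, had 4.05 CPM in the SLC7A2-line no-dox library numbered 1 and 2.82 to 2.96 CPM in the other 3. COL1A1, a fibroblast collagen, had 24.5 CPM in the SLC7A2-line no-dox library numbered 2, the library with the highest fibroblast marker sum.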

How the results depend on the processing

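The 256 calls moved with the design and the tool. DESeq2 called 1480, limma on log2(TPM + 1) 1438, and edgeR on Entrez genes alone 758. Without the replicate block 0 were called (2242 at an unadjusted p under 0.05). In a fit of 4 group means the line difference without dox gave 0 calls (1883 unadjusted) and that with dox 4. Without number 2 there were 91, and a block within each line, added after seeing the data, gave 2011. Leaving out 1 library gave 5 to 71. Scaling by RLE gave 267, no filter 176, and without number 1 310. Of the 62 genes named by rule, 61 kept direction and side of the threshold under DESeq2 and 4 without the block, where 58 kept only the direction. Reversals concerned 3 genes that were not called. SLC7A1 had 0.006 without number 1 and -0.678 without number 2. SLC19A1 had -0.02 without the SLC7A2-line no-dox library numbered 2, 0.178 without number 1, -0.048 without number 2, and -0.04 without both SLC7A2-line libraries numbered 2. COL1A1 had -0.46 with dox, 2.104 without number 1, -0.145 without number 2 and -0.082 without both SLC7A2-line libraries numbered 2. The causes were not tested. With 4 residual degrees of freedom and no line without a construct, the differences concern these 2 lines and their libraries.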

Other observations

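Gene lists added after the values were seen extend the protein turnover genes. Proteasome subunits, which degrade tagged proteins, had 31 of 31 tested members above 0 in the SLC7A2 line, 4 called higher (PSMD1, PSMD11, PSMC4 and PSMC2), against 0.606% of all entries, and a median log2 difference of 0.29. Summed over the list they had 5435, 6221, 5720 and 6587 CPM of the library total among SLC7A1-line libraries, against 6793, 7828, 6671 and 7923 CPM among SLC7A2-line libraries, without overlap. The chaperonin CCT, which folds actin and tubulin, had 3 of 8 subunits called higher (CCT6A, TCP1 and CCT2) against the same 0.606%, all 8 above 0 and a median of 0.32.

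Lysosomal hydrolases and their cofactors had 9 of 34 members called lower, against 0.857% of all entries, and 0 higher, with a median of -0.21 and -0.15 without chromosome 15. The called members were IDUA, NPC2, HEXA, CTSH, PLA2G15, GRN, ASAH1, PSAP and CTSB. In 15 of 34 the SLC7A2-line libraries were all below the SLC7A1-line libraries, against 5.11% of all entries, and in 2 they were all above, against 4.35%. The list had 4 called without both SLC7A2-line libraries numbered 2. Mitochondrial ribosomal proteins had 0 of 40 called in edgeR and a median of 0.07, against -0.39 for the cytosolic ones. Of the 40, 8 had an unadjusted p under 0.05, and DESeq2 called 4, against 8.46% of all entries.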
